A study of Homo sapiens with 6 samples.

Results

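The genes described here are the VAV family and other RAC signalling genes in PaTu8988t cells, an established human pancreatic ductal adenocarcinoma line. They are 10 genes, matched by symbol among the 20347 gene symbols of the normalized count file: the exchange factors *VAV1*, *VAV2*, *VAV3*, *TIAM1*, *TIAM2* and *PREX1* and the GTPases *RAC1*, *RAC2*, *RAC3* and *CDC42*. *VAV1* was selected on its fall in the comparison below, so its values are a description without a test, and the other 9 genes were chosen by family or pathway. RNA-seq was made from 3 Control replicates and from 3 SAMD1 KO clones, each clone derived independently from the same line. The clones were made with CRISPR/Cas9 and guides against *SAMD1*, and the Control construct held an unspecific guide. SAMD1 is a chromatin protein known to bind unmethylated CpG-rich DNA.

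RAC and CDC42 proteins are small GTPases that switch actin assembly on at the cell edge when they carry GTP. Guanine nucleotide exchange factors (GEFs), such as the VAV, TIAM and PREX proteins, load the GTP, GTPase-activating proteins (GAPs) end the signal, and GDIs hold the GTPase in the cytosol. VAV proteins are switched on by tyrosine kinases such as SYK. VAV1 and RAC2 are best known from blood cells, where VAV1 carries signals from antigen receptors, while VAV2 and RAC1 are widely expressed. VAV1 is also known to be expressed aberrantly in some pancreatic tumours.

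*SAMD1* itself had 2231, 2382 and 2299 normalized counts in Control replicates 1 to 3 and 874.1, 1082 and 824.8 in SAMD1 KO clones 1 to 3, so reads of the targeted gene remained in every clone at 0.402 of the Control mean. Libraries held 35589477 to 45172216 reads. Pairs of Control replicates differed less than pairs of clones, with a chi-square per degree of freedom of 2.64 to 5.19 against 50.9 to 58.5, so the spread in the KO group holds differences between clones. The labels do not say whether the Control replicates were separate cultures. Over 6 epithelial markers the summed level was 62727 to 65936 in Control and 67655 to 108596 in KO libraries. Of 5 tested markers, 2 were called higher (40%, against 5.77% of all tested genes), *KRT7* (1.46) and *KRT18* (0.52). The part of these markers in the results below was not tested. *KRT8* had 32902 to 35575 normalized counts in Control and 34021 to 57041 in KO and *KRT18* 29200 to 29771 and 33001 to 50795, whereas *KRT19* was at 0 and *CDH1*, the E-cadherin gene, was at 24.0 to 45.8. Over 12 haematopoietic markers the summed level was 97.4 to 119.4 in Control and 146.6 to 184.9 in KO libraries, with *CD3E* and *MS4A1* at 0, *PTPRC* (CD45) at no more than 2.698 and *CORO1A* highest at 43.5 to 104.5. Over 7 fibroblast markers it was 163.8 to 166.3 in Control and 148.4 to 443.2 in KO, with *LUM*, *DCN* and *FAP* at 0 and *COL3A1* highest.

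The promoters of 4 genes are printed because the region at the start of *VAV1* differs in letters from those of its relatives. The sequences are from RefSeq on GRCh38.p14, run from 250 bases before the transcript start to 50 bases after it, and are given 5′ to 3′ on the strand of the gene. Capitals mark GCGC, a CpG-containing word that reads the same on both strands, with overlapping matches counted. The *VAV1* promoter lies at chr19:6772458-6772757 on the plus strand, that of *VAV2* at chr9:133992275-133992574 on the minus strand, that of *TIAM1* at chr21:31559038-31559337 on the minus strand and that of *PREX1* at chr20:48827950-48828249 on the minus strand.
VAV1: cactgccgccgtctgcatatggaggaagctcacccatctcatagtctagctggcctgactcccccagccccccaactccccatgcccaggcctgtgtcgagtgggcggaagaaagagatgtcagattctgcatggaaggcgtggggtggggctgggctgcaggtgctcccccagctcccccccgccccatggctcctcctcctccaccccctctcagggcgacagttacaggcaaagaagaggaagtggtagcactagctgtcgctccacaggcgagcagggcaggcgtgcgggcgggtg
VAV2: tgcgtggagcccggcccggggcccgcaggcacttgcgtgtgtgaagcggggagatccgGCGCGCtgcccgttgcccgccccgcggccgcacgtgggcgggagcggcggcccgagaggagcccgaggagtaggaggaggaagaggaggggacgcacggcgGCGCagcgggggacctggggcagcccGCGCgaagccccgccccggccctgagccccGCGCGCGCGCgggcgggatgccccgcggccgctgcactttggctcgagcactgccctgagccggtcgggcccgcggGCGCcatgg
TIAM1: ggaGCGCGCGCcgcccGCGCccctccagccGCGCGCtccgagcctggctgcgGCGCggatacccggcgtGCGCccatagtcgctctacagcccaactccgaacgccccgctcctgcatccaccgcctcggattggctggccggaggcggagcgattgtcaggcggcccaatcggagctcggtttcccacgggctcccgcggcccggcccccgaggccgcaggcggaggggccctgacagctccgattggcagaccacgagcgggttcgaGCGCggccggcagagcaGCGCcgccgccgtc
PREX1: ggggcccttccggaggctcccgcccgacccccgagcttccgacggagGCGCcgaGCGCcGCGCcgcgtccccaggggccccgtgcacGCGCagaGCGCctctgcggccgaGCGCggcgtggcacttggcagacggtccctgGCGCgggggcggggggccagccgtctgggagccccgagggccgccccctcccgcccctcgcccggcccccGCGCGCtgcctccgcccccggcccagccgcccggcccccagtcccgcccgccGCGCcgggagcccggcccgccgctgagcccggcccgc
The *VAV1* window held 0 GCGC and 12 CpG in 300 bases, with a GC content of 65.0% and an observed over expected CpG ratio of 0.380. The *VAV2* window held 9 GCGC and 46 CpG, that of *TIAM1* 10 and 46, and that of *PREX1* 10 and 49, with CpG ratios of 0.970, 1.07 and 0.909. Of all 35116 promoters in the table, 57.2% held a GCGC, and of the 15121 promoters of tested genes 79.7% did. Promoters with no more CpG than that of *VAV1* made up 48.3% of all promoters and 21.4% of those of tested genes. The *CDC42* promoter held 6 GCGC. *SYK*, which was called lower as given below, had windows 1 and 2 at the start of the gene, with 3 and 7 GCGC and 19 and 40 CpG. Its window 3, 25.6 kb inside the gene, held 0 GCGC and 2 CpG. The windows for *TIAM2* and *VAV3* belong to transcript starts inside those genes, the first of *TIAM2* 163 kb and that of *VAV3* 277 kb from the outermost annotated start, and are not described further. In all, 7 of the 10 genes had a promoter in the table, and *RAC1*, *RAC2* and *RAC3* had none. A match is a description of these letters and no binding of SAMD1 was analysed here. The relation of these letters to the changes in RNA level was not tested.

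*VAV1* RNA was present in Control cells and nearly gone from the SAMD1 KO clones. It had 105.2, 112.5 and 114.5 normalized counts in the Control replicates and 9.89, 4.32 and 17.1 in clones 1 to 3, which rest on 10, 5 and 19 reads. In bulk RNA, fewer cells with the transcript and less transcript per cell cannot be told apart. Every clone lay far under every Control replicate, and the clones differed among themselves by 3.96-fold. The means were 110.8 ± 4.9 and 10.4 ± 6.4 (SD, n = 3 each), a ratio of 10.6, and the coefficient of variation was 4.42% in Control and 61.4% in KO. The log2 fold change of −3.46 (standard error, SE, 0.42) is on the log2(normalized count + 1) scale, as are all fold changes here. *VAV1* ranked 2 among 225 called falls, counting genes with a mean of 50 or more whose groups did not overlap. This rank follows from its selection as one of the largest falls, and it is not a test. The last gene inside the 5 largest falls was *ITM2A* (log2 fold change −2.85) and the first outside was *MDFI* (−2.83). *VAV1* lies on chromosome 19 at 6772708 to 6857366 (GRCh38, plus strand), and no other annotated gene overlaps it. The haematopoietic markers were not lower in sum, as given above, though the 3 tested ones of the 12 had log2 fold changes from −0.86 to 1.64. A relation between these markers and the level of *VAV1* was not tested.

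*VAV2* did not share this fall. This widely expressed member had 1466, 1475 and 1436 normalized counts in Control and 2451, 2215 and 1614 in clones 1 to 3. All clones lay above Control, clone 3 only a little. The log2 fold change was 0.50 (SE 0.14, adjusted p = 0.0637 by limma), just short of the call used here, which needs a change of more than 0.5 on the log2 scale together with p below 0.01 before adjustment. It was past both after scaling by the 75th percentile (0.52), without clone 3 (0.67), by edgeR (0.52) and by DESeq2 (0.52), where its adjusted p was 0.00644. *VAV3* was read in 2 of the 6 libraries, with 1 and 2 reads, so its level was at or under 3 reads throughout and a change was not detectable at this depth. Per kilobase of exon, *VAV1* made up 9.09% ± 0.44 of the summed VAV level in Control and 0.720% ± 0.58 in KO (SD, n = 3 each), and *VAV2* made up nearly all of the rest. The summed VAV level per kilobase was 282.6 ± 3.3 in Control and 370.9 ± 74.8 in KO, and in clone 3 it was 288.2, close to the 279.4 to 285.9 of the Control replicates.

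**Figure D1:**
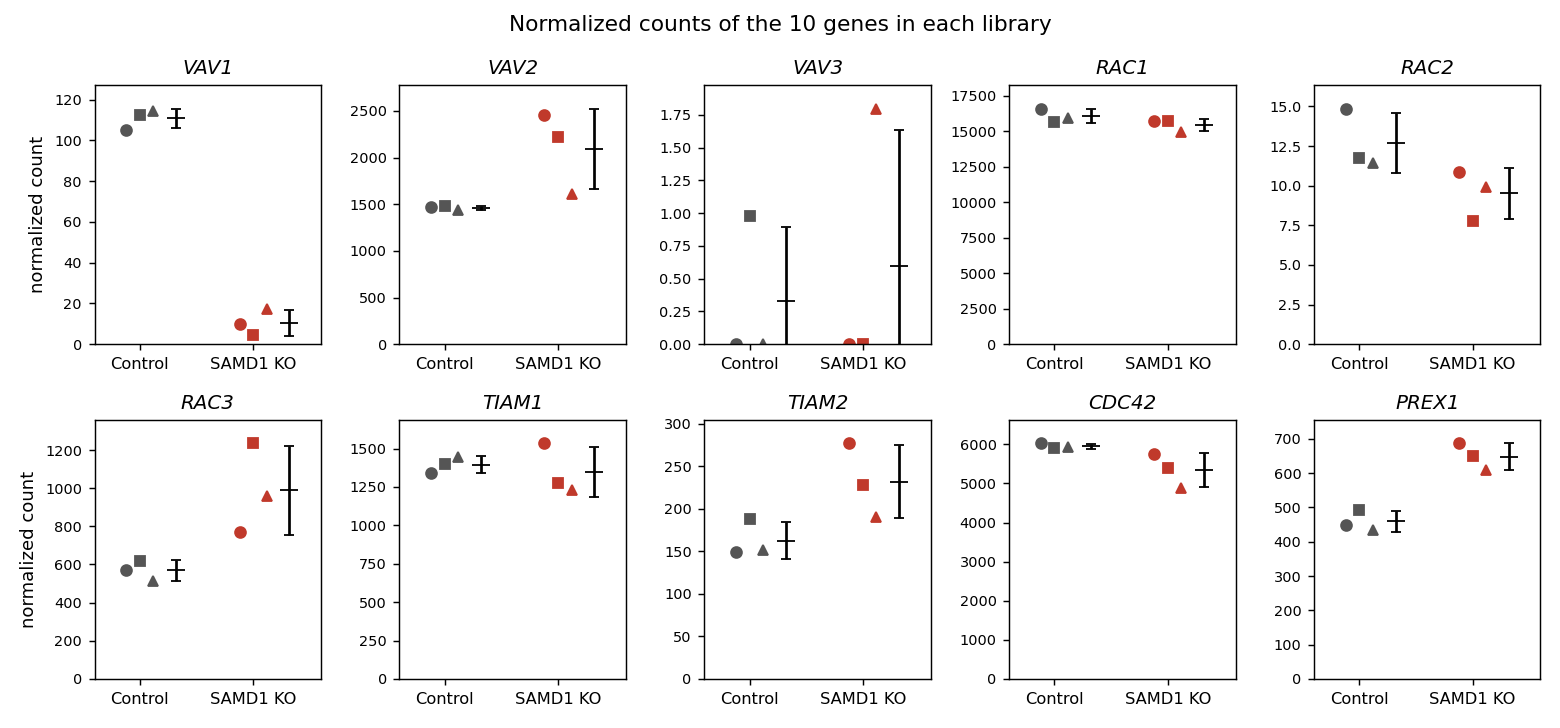
Normalized counts (linear axes from 0) of the 10 genes in each library, with Control replicates 1 to 3 (grey) and SAMD1 KO clones 1 to 3 (red) as circle, square and triangle, and the mean ± SD of each group as a black bar. *VAV1* lies at 105.2 to 114.5 in Control and 4.32 to 17.1 in the clones, *RAC3* is higher in each clone, and *RAC1* overlaps between the groups.

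Among the RAC GTPases, *RAC3* rose while *RAC1* did not pass the test. *RAC3*, a RAC known best from the nervous system, had 573.1, 620.3 and 513.2 normalized counts in Control and 769.3, 1235 and 958.8 in clones 1 to 3. Each clone was above each Control replicate, clone 2 most. The means were 568.9 ± 53.7 and 987.9 ± 234 (SD, n = 3 each), which is a log2 difference of 0.77 (SE 0.17, adjusted p = 0.0277 by limma). It was the 1 gene of the 8 tested genes other than *VAV1* that was called higher, where 5.77% of all 12773 tested genes were called higher, and 0 of the 8 were called lower, where 2.08% of all tested genes were. Without Control replicate 3 the value was 0.70 with an unadjusted p of 0.0115 and an adjusted p of 0.120, which ends the call.

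*RAC1*, the RAC of most tissues, had 16600, 15679 and 15919 normalized counts in Control and 15689, 15685 and 14922 in the clones, and the groups overlapped. Its log2 fold change was −0.058 (95% interval −0.18 to 0.062, adjusted p = 0.492 by limma). *RAC2*, the RAC of blood cells, was barely present, with 14.9, 11.7 and 11.5 normalized counts in Control and 10.9, 7.78 and 9.89 in the clones (log2 fold change −0.38, SE 0.30). Its KO mean of 9.52 was under the filter of 10, which it passed through Control. Its values are therefore a description, and it was not called. Per kilobase, *RAC1* supplied 83.2% ± 1.4 of the RAC level in Control and 73.6% ± 4.5 in KO, and *RAC3* 16.6% ± 1.5 and 26.2% ± 4.5 (SD, n = 3 each). The clone with the most *RAC3*, clone 2, had 30.6%.

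*CDC42*, the GTPase that acts on filopodia and cell polarity, had 6027, 5907 and 5934 normalized counts in Control and 5752, 5404 and 4875 in the clones. All clones lay under Control, but by little, with a log2 fold change of −0.16 (SE 0.068, adjusted p = 0.167 by limma). The 20 tested genes nearest to *CDC42*, 10 on each side, had a median log2 fold change of −0.16 as well. These 20 genes span 2867 kb and ranged from −1.99 to 0.83. When this regional median was subtracted from the fold change of *CDC42*, 0.0019 remained. The part of the region in the level of *CDC42* was not tested. *CDC42* overlaps a protein-coding gene without a symbol on its own strand, so reads of the pair may be shared.

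Of the 10 genes, the exchange factors outside the VAV family, *PREX1*, *TIAM2* and *TIAM1*, were level or a little higher in KO cells. *PREX1*, a GEF that answers to PIP3 and to G protein subunits, had 448.4, 493.1 and 435.3 normalized counts in Control and 686.2, 648.8 and 608.0 in the clones. The clones were close to each other and all above Control. The log2 fold change of 0.50 (0.496 before rounding, SE 0.090, adjusted p = 0.0141 by limma) missed the fold cut-off of 0.5. It was past it after scaling by the 75th percentile (0.516), by edgeR (0.501) and without Control replicate 2 (0.55) or clone 3 (0.54).

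*TIAM2* had 148.7, 187.9 and 151.2 normalized counts in Control and 276.9, 228.1 and 190.7 in the clones, with clone 3 just over Control replicate 2. Its log2 fold change was 0.50 (SE 0.17, adjusted p = 0.103 by limma), and without clone 3, at 0.63 with an unadjusted p of 0.00721, it met the call. It overlaps *SCAF8* on the same strand, so reads may be shared. *TIAM1*, its widely expressed relative, had 1341, 1399 and 1447 normalized counts in Control and 1535, 1279 and 1232 in the clones, which overlap (log2 fold change −0.055, 95% interval −0.27 to 0.16, adjusted p = 0.733 by limma).

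Over the 8 tested genes other than *VAV1*, 2 had a limma adjusted p below 0.05 (*RAC3* and *PREX1*), where 13% of all tested genes did. With a library left out, that of *RAC3* was below 0.05 in 3 of 6 fits, reaching 0.120 and failing without any 1 of the Control replicates. That of *PREX1* was below 0.05 in 4 of 6, with 0.0854 without Control replicate 1 and 0.0809 without Control replicate 3. Of the 8 genes, 6 had no overlap between the groups, where 37.8% of all tested genes had none. Those 6 were 4 higher (*VAV2*, *RAC3*, *TIAM2* and *PREX1*) and 2 lower (*RAC2* and *CDC42*). *RAC2* is counted in the 8 and in the 6 although it passed the filter through its Control level. With 3 libraries in each group, the smallest p of an exact permutation test is 0.1. Fold changes were positive for 4 of the 8 and negative for 4, and the median over all tested genes was −0.0059.

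Clone 3 lay nearest to Control for *VAV1*, *VAV2*, *TIAM2* and *PREX1*, and farthest from it for *RAC1*, *TIAM1* and *CDC42*. For *VAV1* the log2 differences from the Control mean were −3.36, −4.39 and −2.63 in clones 1 to 3. For *VAV2* they were 0.75, 0.60 and 0.14, and for *TIAM2* 0.77, 0.49 and 0.24. The clone order was thus not the same for every gene, since *RAC3* had 0.44, 1.12 and 0.76.

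**Figure D2:**
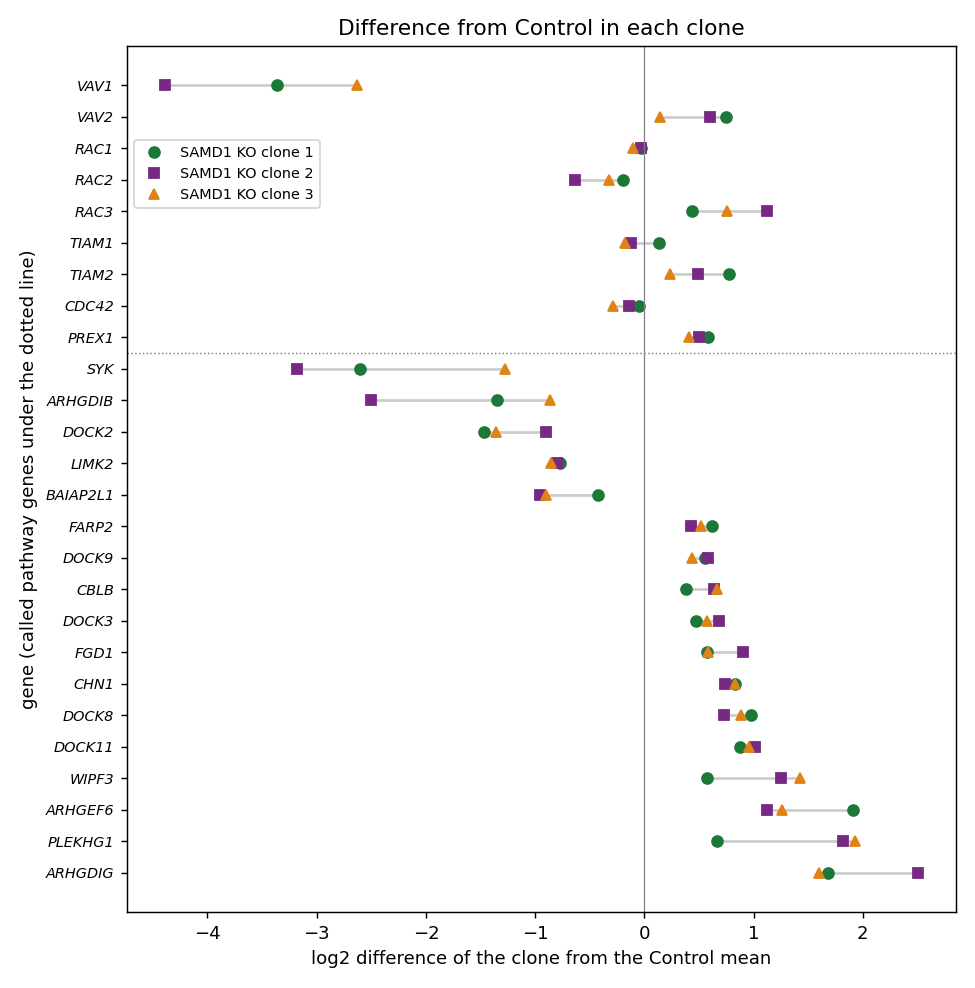
Log2 difference of each SAMD1 KO clone from the Control mean (horizontal axis) for the 9 tested genes and, under the dotted line, the called genes of 7 pathway lists, with clone 1 as a circle, clone 2 as a square and clone 3 as a triangle. *VAV1* and *SYK* have clone 2 lowest and clone 3 nearest to 0, and *PREX1*, *LIMK2* and *CHN1* have 3 clones close together.

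On a scale of normalized counts per kilobase of exon, which allows genes to be set side by side, *RAC1* was highest in Control at 1941 and *RAC3* followed at 386. *VAV2* at 257 and *CDC42* at 244 came next and were near each other, then *TIAM1* at 151, *PREX1* at 61.1, *VAV1* at 25.7, *TIAM2* at 14.1 and *RAC2* at 4.85. In the KO clones the order was the same down to *PREX1* at 86.3, but *TIAM2* at 20.04 and *RAC2* at 3.64 were above *VAV1* at 2.42. *VAV1* and *RAC2* were not apart in KO, since clone 3 had more *VAV1* per kilobase than *RAC2* in 2 clones. With the length of the longest transcript in place of all exons, *CDC42* ranked 2 in Control and 3 in KO, so its rank rests on the length used.

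**Figure D3:**
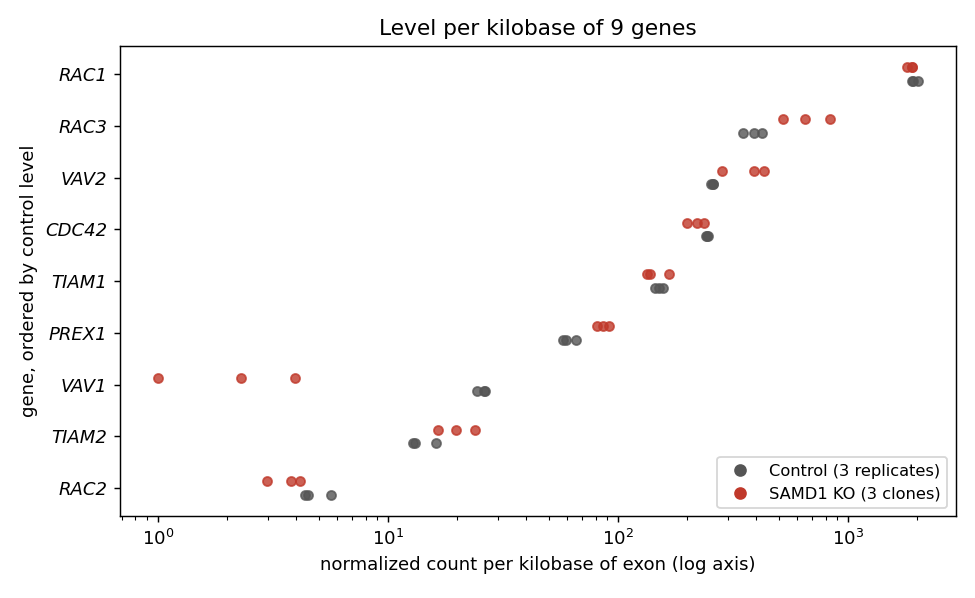
Normalized count per kilobase of exon (log axis) of 9 genes in each library, with Control replicates in grey and SAMD1 KO clones in red, ordered by the Control level. *VAV1* is at 25.7 on average in Control and at 2.42 in KO, the lowest of the 9 there, and *VAV3*, at or under 3 reads, is left out.

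The regulators and effectors around these genes were read from 8 lists of textbook roles, with 178 genes, of which 149 passed the filter on low counts. Of the 149, 14 were called higher (9.40%) and 5 lower (3.36%), against 5.77% and 2.08% of all tested genes, and their median log2 fold change was 0.0063. Of the 5, *DOCK2* passed the filter through Control alone. When each library was left out in turn, 10 of the 14 and 3 of the 5 were called in all 6 fits. The filter removed 29 genes, 8 of them at 0 reads in every library, among them *LCP2* (the adaptor SLP-76) and *ELMO1*.

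Kinases, adaptors and receptors upstream of the GEFs gave 1 higher and 1 lower gene of 24 tested (4.17% each). Of all tested genes, 5.77% were called higher and 2.08% lower. *SYK*, the tyrosine kinase that acts on VAV proteins, had 54.9, 45.0 and 42.4 normalized counts in Control and 6.92, 4.32 and 18.9 in clones 1 to 3. It was low in every clone, with the same clone order as *VAV1*, an order of only 3 clones. Its Pearson r with *VAV1* was 0.976 over the 6 libraries. This r is a description, since all points share the step between the groups and *VAV1* was selected on its fall. A high r with *VAV1* was not particular to *SYK*. Of 11452 genes with a mean of at least 50, 295 passed an r cut-off a little under the r of *SYK*. The clone values rest on few reads, since 1 read is 0.989, 0.864 and 0.899 normalized counts in clones 1 to 3. The log2 fold change of *SYK* was −2.35 (SE 0.48, adjusted p = 0.0211 by limma). With a filter at a mean of 50, 0 genes of this list were called lower. *CBLB*, a ubiquitin ligase that restrains VAV signalling, was called higher, from 270.1 to 399.4 (0.56), though not without Control replicate 1. *SRC* did not pass, with 2740 in Control and 2808 in KO, and *EGFR*, at 19176 and 14667, had a log2 fold change of −0.39 (adjusted p = 0.0319 by limma), short of the fold cut-off.

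In the list of other DBL-type exchange factors, calls were made for 4 of 27 tested genes (14.8%), all higher, against 5.77% of all tested genes. *ARHGEF6* (alpha-PIX, a partner of PAK kinases) had 160.1, 178.1 and 192.4 normalized counts in Control and 665.5, 386.2 and 423.6 in the clones, a log2 fold change of 1.43 (SE 0.21, adjusted p = 0.00613 by limma). *PLEKHG1* rose by 1.47, *FGD1*, a CDC42 GEF, by 0.69 and *FARP2* by 0.52 on the log2 scale. Of these, *PLEKHG1* lost its call without Control replicate 3, and *FARP2* without Control replicate 1 or clone 1. The median of the list was −0.038. Without the fold cut-off, 5 of the 27 were higher and 1 lower at a limma adjusted p below 0.05. Of all tested genes, 13% were below it in either direction.

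In the list of DOCK exchange factors and ELMO partners, 4 of 13 tested genes (30.8%) were higher and 1 lower (7.69%). Of all tested genes, 5.77% were called higher and 2.08% lower. The median of the list was 0.13. *DOCK8*, a CDC42 exchange factor best known from lymphocytes, had 359.2, 366.9 and 390.6 normalized counts in Control and 734.7, 616.9 and 687.2 in the clones (log2 fold change 0.86, adjusted p = 0.00236 by limma). Its relatives *DOCK11* (0.95) and *DOCK9* (0.53), also CDC42 exchange factors, and *DOCK3* (0.58), which acts on RAC, rose too. *DOCK9* lost its call without Control replicate 1 or clone 2. *DOCK2*, the RAC exchange factor of blood cells, was called lower at 15.6 ± 3.3 in Control and 6.04 ± 1.5 in KO (SD, n = 3 each). It passed the filter of 10 through its Control level alone, so this fall is given as a description, and the call held in 1 of the 6 fits that left out a library.

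Among genes that end RAC signalling, 2 of 19 tested were higher (10.5%) and 1 lower (5.26%), against 5.77% and 2.08% of all tested genes. *CHN1* (chimaerin 1, a RAC GAP) had 913.9, 862.0 and 893.5 normalized counts in Control and 1578, 1484 and 1579 in the clones, which agree closely (log2 fold change 0.80, SE 0.063, adjusted p = 0.000724 by limma). The GDI genes moved apart. *ARHGDIG* had 13.7, 30.3 and 12.6 in Control and 58.3, 103.7 and 54.9 in the clones (1.93, adjusted p = 0.0224 by limma), while *ARHGDIB*, the GDI of blood cells, had 480.4, 488.2 and 445.6 in Control and 183.9, 82.1 and 258.1 in the clones (−1.57, adjusted p = 0.0351 by limma). *ARHGDIB* lost its call in each of the 3 fits without 1 Control replicate. *ARHGDIA*, the widely expressed GDI, had 10632 and 9388 on average and was not called.

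Of 25 tested kinase and scaffold effectors, 0 were called higher and 2 lower (8%, against 2.08% of all tested genes). *LIMK2*, a kinase that phosphorylates cofilin, had 558.2, 595.9 and 557.8 normalized counts in Control and 334.2, 328.3 and 315.7 in the clones (log2 fold change −0.81, SE 0.083, adjusted p = 0.00179 by limma). *BAIAP2L1*, a membrane-bending adaptor, fell from 1753 to 1051 (−0.76, adjusted p = 0.0137 by limma). *PAK1*, a main RAC effector kinase, had 2135 and 2219 on average and was not called. Of 22 tested genes of the WAVE complex, WASP proteins and ARP2/3 complex, 1 was higher, *WIPF3* (1.09, adjusted p = 0.0237 by limma). That is 4.55%, against 5.77% of all tested genes. Of 5 tested NADPH oxidase genes 0 were called. In that oxidase list 4 of 9 genes were under the filter, so little can be read from it.

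**Figure D4:**
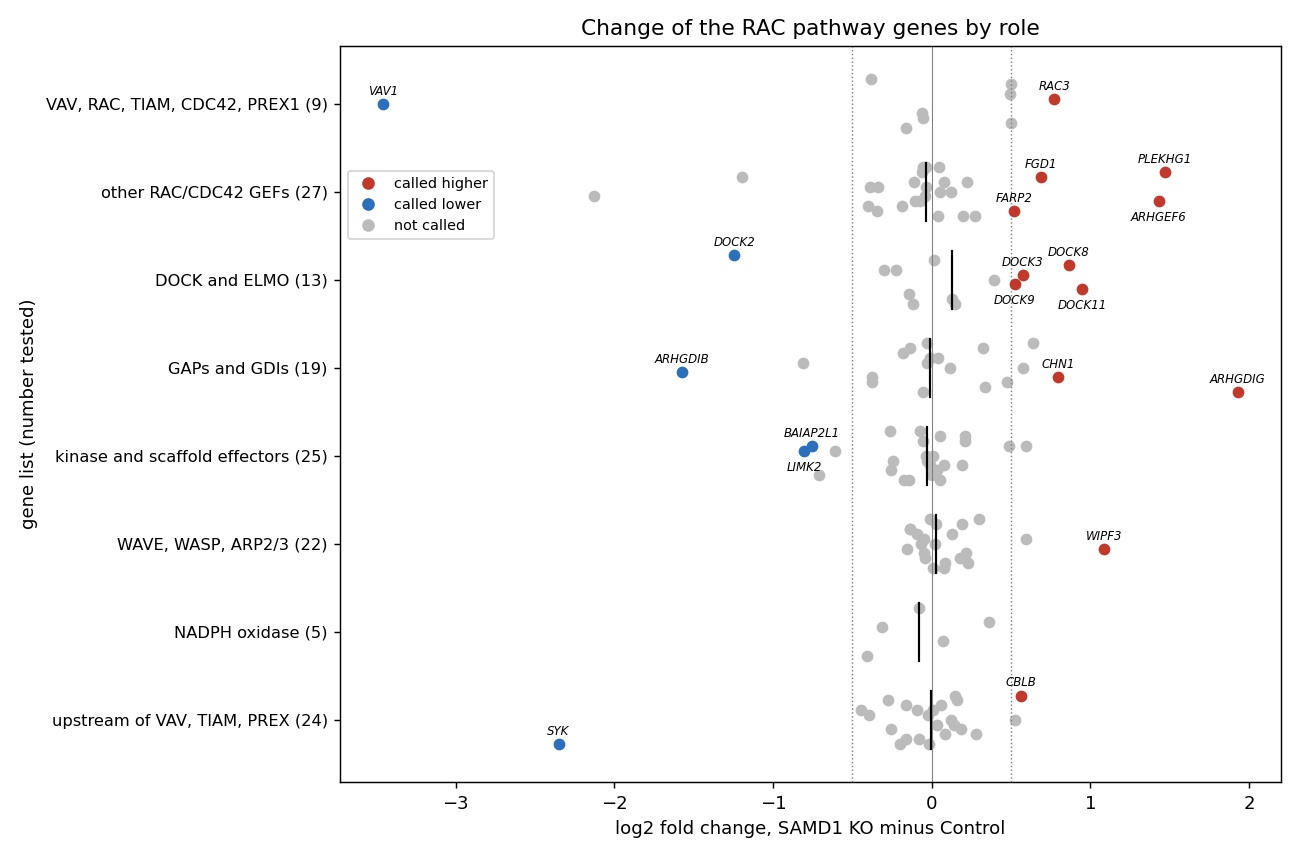
Log2 fold change, SAMD1 KO minus Control (horizontal axis), for each tested gene of the VAV, RAC, TIAM, CDC42 and PREX1 group and of 7 pathway lists, with called genes in red (higher) or blue (lower), others in grey, the median of each pathway list as a black line and the fold cut-off of 0.5 dotted. *VAV1* and *SYK* are the lowest coloured points, where *VAV1* was selected on its fall and has no test. The DOCK and ELMO list has 4 of its 13 tested genes called higher (30.8%), against 5.77% of all tested genes.

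On chromosome 19, 1 neighbour of *VAV1* was called lower. The nearest tested gene upstream, *SH2D3A*, an adaptor gene with an SH2 domain, lies 5.25 kb away on the opposite strand at 6752160 to 6767463 (GRCh38). It had 242.5, 261.2 and 245.1 normalized counts in Control and 77.1, 88.1 and 75.6 in the clones, a fall in every clone with little spread. Its log2 fold change was −1.63 (SE 0.13, adjusted p = 0.000698 by limma). The nearest tested gene downstream, *ZNF557*, is 212 kb away and had a log2 fold change of 0.014. Over the 20 tested genes nearest to *VAV1*, 10 on each side across 1250 kb, *SH2D3A* was the 1 called lower, 0 were called higher and the median was 0.016. Of all tested genes, 2.08% were called lower. Among the 20 nearest tested genes, 1 was also called lower around each of *VAV3*, *RAC2* and *PREX1*, and 3 around *CDC42*. Around *VAV2*, *RAC1*, *RAC3*, *TIAM1* and *TIAM2* 0 were. In single clones the median around *VAV1* was −0.057, 0.12 and −0.027.

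**Figure D5:**
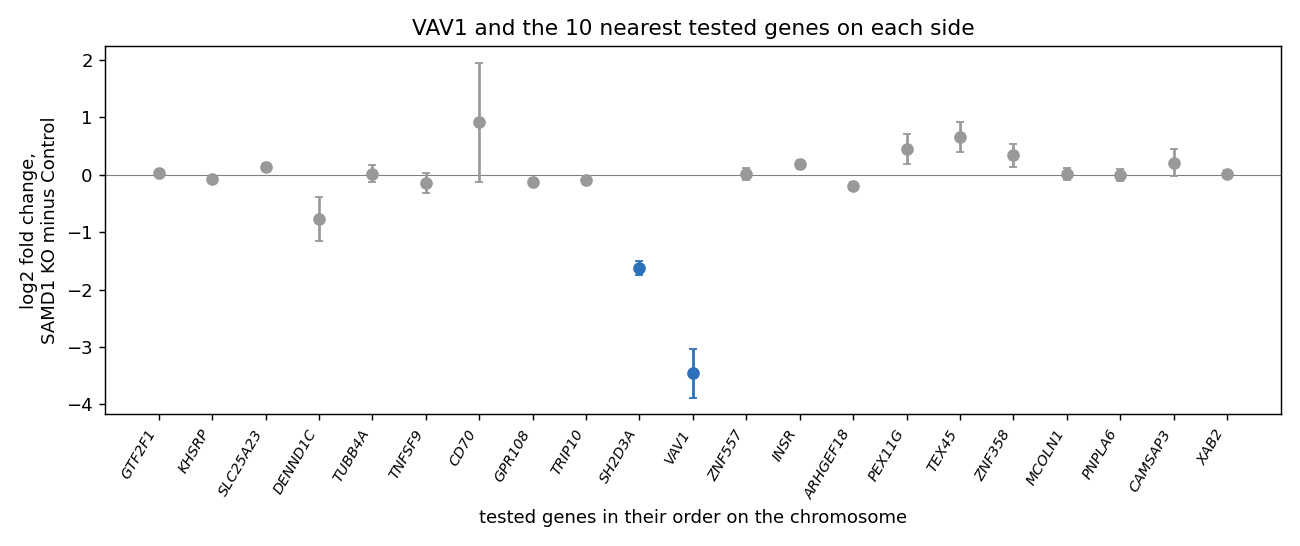
Log2 fold change, SAMD1 KO minus Control, with its standard error (vertical axis) for *VAV1* and the 10 nearest tested genes on each side, in chromosome order, with called genes in blue. *VAV1*, also in blue, was selected on its fall and has no test. *VAV1* (−3.46) and its neighbour *SH2D3A* (−1.63) stand below the other 19 genes, of which 0 were called.

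Around *RAC3* on chromosome 17 the 20 nearest tested genes had a median of 0.036. The 1 called gene there was *NOTUM*, which encodes a secreted WNT inhibitor, higher at 1.11, where 5.77% of all tested genes were called higher. For *VAV2* on chromosome 9 the neighbours had 0.092, 0.17 and −0.17 in clones 1 to 3, so they were also lowest in clone 3, and their part in the spread of *VAV2* was not tested.

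The genes whose levels ran most alike to *VAV1* over the 6 libraries, by Pearson r of log2 values among 11452 genes with a mean of at least 50, were *NFIB* (0.998), *HOOK1* (0.997), *B3GNT3* (0.996), *MARS2* (0.995) and *DGKE* (0.995). In all 23 genes had an r above 0.99. Their own falls were smaller, from −0.24 for *MARS2* to −1.34 for *B3GNT3*, which went from 950.0 to 376.8 normalized counts. For *RAC3* the most alike were *SLC2A6* (0.999), *USF2* (0.999) and *JCAD* (0.996), of 12 genes above 0.99. With 6 libraries in 2 groups the r rests mainly on the step between the groups and on the clone order.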

How the data were processed

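RNA-seq of PaTu8988t cells was analysed for 3 Control and 3 SAMD1 KO libraries, grouped by their labels. The authors aligned reads to the human transcriptome (GenCode 43, hg38) with RNA-STAR 2.7.10b, and the submitters' processing notes name featureCounts and DESeq2. The strand setting of the counting is not given in the sources used here. The deposited signal is a normalized count, a read count per gene divided by a size factor per library, and 100% of the values were whole multiples of 1 step (tolerance 0.01), so reads were recovered. In 1 of the 6 libraries that step was close to 1. A deposited table of the authors' own comparison (fold changes and p-values) was not used, and 0 sample columns were left out.

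Expression was compared with the trended eBayes fit of limma 3.58.1 (R 4.3.3) after adding a pseudocount of 1 and taking log2, for the 12773 genes whose mean normalized count reached 10. Genes passing 0.5 on the log2 scale with p below 0.01 before adjustment, the thresholds of the study, were called. Two-sided p-values were adjusted by Benjamini-Hochberg across the 12773 genes. The comparison was tested on simulated counts of 12773 genes, where limma recovered 182 of 200 genes changed 2-fold and called 37 unchanged ones. Each simulated gene had the same spread in both groups, so the larger spread of the clones was not covered. Levels per kilobase used exon lengths, and neighbours used positions, of GENCODE 44 on GRCh38. Depth was 35589477 to 45172216 reads, so the number of libraries limits the precision except for genes with few reads.

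The genes, pathway lists and markers were chosen with earlier results of these data known. Named genes are the 10 genes, *SAMD1*, up to 5 called genes of each list, the falls ranked 5 and 6, the genes most alike to *VAV1* (5) and *RAC3* (3), neighbours of *VAV1*, and the markers with the highest level. *SRC*, *EGFR*, *ARHGDIA*, *PAK1*, *KRT7*, *LCP2*, *ELMO1*, *NOTUM* and the markers at 0 or low levels fall outside that rule and were named after their values were seen. Alternatives were other pseudocounts, filters and scaling, a replicate block, leaving out each library, and edgeR 4.0.16 and DESeq2 1.42.0 on recovered reads. Removing the regional median was added after seeing the data. The genes of 1 pathway list and 1 marker are not reported here. Python 3.11.15, pandas 2.3.3 and SciPy 1.17.1 were used.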

Additional observations from a re-analysis of the deposited data

How the results depend on the processing

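The number of genes other than *VAV1* called higher, 1 in the report, depended on the setting. It was 3 after scaling by the 75th percentile, 3 by edgeR, 2 by DESeq2, and 0 (without Control replicate 3) to 4 (without clone 3) when each library was left out. Pathway genes called lower numbered 5 in the report, 3 with a mean of at least 50, and 3 (without Control replicate 1 or 3) to 8 (without clone 2) with a library left out, and those called higher 11 to 16. The *TIAM1* log2 fold change lay between −0.15 and 0.0062 with a library left out, with the change of sign without clone 3, and that of *CDC42* changed sign to 0.0019 after the regional median was removed. *VAV1* made up 11.8% of the Control VAV level by the longest transcript. Its log2 fold change lay between −3.88 and −2.99 with a library left out and was −2.61 with a pseudocount of 10, which acts on the low KO values. The cause of the other changes was not tested. Of 94 counts of calls and shares recomputed, 83 stayed close to the value of the report. Of 508 values of single genes and lists, 452 did, 2 changed sign (*TIAM1* and *CDC42*), 1 lost its call, 9 gained one and 44 moved otherwise.

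The labels of the Control and KO replicates share only their numbers, and do not say whether same-numbered libraries were handled together. The deviations of same-numbered libraries correlated at 0.039, 0.13 and 0.032, and those of the other pairs at −0.074 to 0.036. Control replicates 1 and 2 correlated best with the clone of their own number, and Control replicate 3 with clone 1. With the replicate number as a block, 725 genes were called higher and 259 lower against 737 and 266 without it, and the pathway lists gave totals of 14 and 5. The genes behind the 5 differed, since the DOCK and ELMO list went from 1 gene called lower to 0 and the DBL-type list from 0 to 1.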

Other observations

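Some RAC pathway genes differed more between the 3 SAMD1 KO clones than between Control and KO. Of 134 pathway genes whose mean reached 50 normalized counts, 13 (9.70%) differed by more than 2-fold between their highest and lowest clone, against 4.55% of 11453 such genes in all, and none of the 134 did so among the Control replicates. The genes named here were chosen after their values were seen. *PLEKHG4*, an exchange factor gene, had 2450, 2473 and 2347 normalized counts in Control and 3810, 918.4 and 1981 in clones 1 to 3. *PAK3*, a RAC and CDC42 effector kinase known from neurons, had 131.5, 135.0 and 136.3 in Control and 37.6, 89.9 and 161.0 in the clones. *DOCK10* had 162.4, 144.8 and 144.3 in Control and 197.8, 65.7 and 163.7 in the clones. For these 3 genes the clones lay on both sides of Control.

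*FGD2*, a CDC42 exchange factor gene, had 16.0, 25.4 and 24.1 normalized counts in Control and 0.989, 5.18 and 9.89 in the clones, on 1, 6 and 11 reads. It passed the filter of 10 through its Control level alone, so no test is given. Of the 12 haematopoietic markers 3 were tested, with log2 fold changes from −0.86 to 1.64. Of these, 1 was called higher (33.3%, against 5.77% of all tested genes) and 0 lower. The called marker was *IKZF1*, a lymphoid transcription factor gene, with 24.0, 17.6 and 16.0 in Control and 80.1, 43.2 and 65.7 in the clones (log2 fold change 1.64, adjusted p = 0.0135 by limma).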
